A study of Homo sapiens with 2 samples.

Results

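AXIN2 and APCDD1 are inhibitors of Wnt signalling that are themselves switched on by the pathway, and both lie in stretches with many PROX1 peaks. The members described here are the 109 peaks of the deposited list with their centre at 60 to 61 Mb of chromosome 17, where AXIN2 lies, or at 10 to 11 Mb of chromosome 18, where APCDD1 lies. They are 56 and 53 of the 23450 peaks of the list. These stretches were chosen by their number of peaks, which is among the highest of any 1 Mb window, so peak number, tags and folds in them are given as a description, with no test. The series holds 1 chromatin immunoprecipitation and sequencing (ChIP-seq) library made with a goat antibody against human PROX1 and 1 library of input DNA, which is chromatin that was not immunoprecipitated. The cells of both were SW480R, a subline derived from the colorectal adenocarcinoma cell line SW480 of human origin, with no treatment named in the labels. For the ChIP library, 3 independent immunoprecipitations were pooled, so no spread between replicates can be given. Markers of the cell type cannot be checked in a list of peaks.

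In the Wnt pathway, a destruction complex built on axin and APC marks beta-catenin for degradation, and a Wnt signal at the cell surface stops it. Beta-catenin then enters the nucleus and activates genes together with TCF/LEF factors. AXIN2 encodes a scaffold of the destruction complex, and APCDD1 encodes a membrane protein that can bind Wnt ligands and their co-receptors, so each works as a brake that the pathway turns on. Most colorectal tumours carry a lesion of the pathway, SW480 cells carry a truncated APC, and PROX1, a homeobox transcription factor, is itself known as a target of beta-catenin and TCF in colorectal tumours.

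AXIN2 was taken to span 60955100 to 60988200 of chromosome 17 on the minus strand and APCDD1 10444600 to 10478700 of chromosome 18 on the plus strand, all on the hg18 build. These bounds are rounded to 100 bp, so the distances below carry that uncertainty, and exons, introns and UTRs were not annotated. Each peak has a tag count, the number of ChIP reads the authors counted in it, and a fold, a scaled ratio of ChIP to input tags. For some peaks the fold is not the listed tag count over a whole number of input tags. No peak with a fold under 13.03 is listed. A strong peak is one at 26.06 or more, which is 2 times that lowest fold. Peaks whose edges lie within 10 kb of each other are called a run. An absent peak means only that none was listed, since the level outside peaks is not in the list.

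AXIN2 carried several peaks at its start, none of them strong, whereas APCDD1 carried a single strong peak inside the gene. The nearest peak to the AXIN2 start lay 211 bp upstream of it, at 60988411 to 60988451, with 14 tags and a fold of 14.03. Inside the gene, 1 peak was listed, at 60982731 to 60982891, 5.31 kb downstream of the start, with 13 tags and a fold of 13.03, equal to the lowest tag count and fold of the whole list. Further upstream lay a peak of 18 tags and a fold of 18.04, at 60991651 to 60991691, and a peak of 20 tags and a fold of 20.05, at 60991911 to 60991951. These 4 peaks formed 1 run of 9.22 kb with 65 tags, and none of them was strong. The fifth peak within 10 kb of the gene lay 8.73 kb beyond its far end, at 60946311 to 60946371, with 32 tags and a fold of 16.04. So of the 5 peaks at AXIN2, 0 were strong, where 30.3% of all nuclear peaks were. All 5 folds lay between 13.03 and 20.05, and the highest was just above the median of all nuclear peaks, 19.05.

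The APCDD1 peak had the highest fold of either window. It lay at 10454191 to 10454231, 9.59 kb downstream of the start, with 83 tags and a fold of 83.21, and it ranked 416 in the list by fold. It was the only listed peak within 10 kb of the gene and stood alone, with no neighbour within 10 kb. Its fold of 83.21 is 4.15 times that of the highest peak at AXIN2, a ratio of single values without replicates that holds for the genes and 10 kb on either side. Within 50 kb of the start the order turned, with a highest fold of 104.26 at AXIN2 and 83.21 at APCDD1. Around the APCDD1 start, 33.26 kb from 10420931 to 10454191 held no listed peak. The nearest upstream peak, 23.7 kb from the start, had 17 tags and a fold of 17.04.

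Only the APCDD1 promoter is shown, because the promoter set used here had no entry for AXIN2. The 250 bases before the start are given as RefSeq has them on GRCh38.p14 (chr18:10454385-10454634, plus strand), a newer build than that of the peaks, and the starts in the 2 builds were not aligned. Capitals mark each CG.
APCDD1: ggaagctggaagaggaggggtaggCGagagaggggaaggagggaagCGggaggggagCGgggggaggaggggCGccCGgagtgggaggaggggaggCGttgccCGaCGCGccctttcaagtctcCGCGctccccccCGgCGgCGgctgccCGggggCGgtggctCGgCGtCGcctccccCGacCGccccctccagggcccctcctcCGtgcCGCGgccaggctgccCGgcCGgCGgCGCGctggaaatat
This promoter is GC-rich, with 77.2% G or C and 29 CG steps, against medians of 58.0% and 11 over 35116 promoters of the same length. Neither CTTTGA, the core of TCF/LEF sites, nor AAGACG or AAGGCG, ends of PROX1 sites known from selection in vitro, occurs in it on either strand, and no motif of these 3 contains another. CTTTGA is found in 11.2% of all these promoters, AAGACG in 5.01% and AAGGCG in 11.8%. No match says only that these letters are not in this window.

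**Figure D1:**
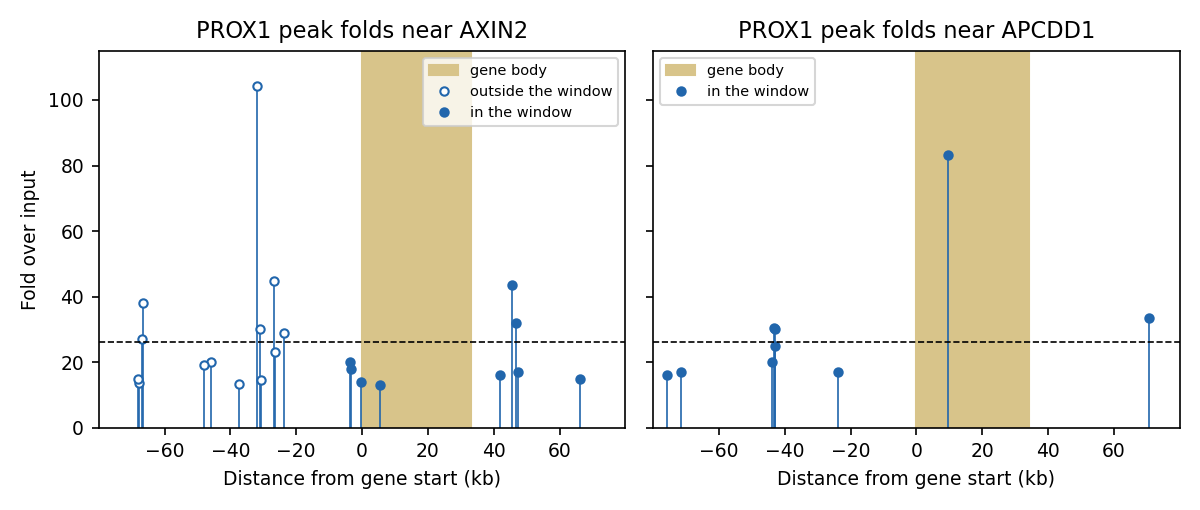
Fold over input of each listed PROX1 peak (vertical axis) against distance of its centre from the gene start in kb, positive along transcription, for AXIN2 (left) and APCDD1 (right). Shading marks the gene body, the dashed line the fold of 26.06 that defines strong peaks, and open circles peaks outside the 1 Mb windows; the peaks at the AXIN2 start stay at 20.05 or lower, and the peak inside APCDD1 stands at 83.21.

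Beyond the start, AXIN2 was flanked by stronger peaks on both sides. On the far side of the gene, the run at 60940851 to 60946371 held 4 peaks with 192 tags, of which 2 were strong. Its highest peak, 60942491 to 60942751, reached a fold of 43.61 with 87 tags. On the upstream side, the next peaks lay beyond 61 Mb and so outside the window that chose the members. There a run of 9 peaks with 611 tags spanned 24.18 kb from 61011951 to 61036131 and began 23.8 kb from the AXIN2 start. It held 4 strong peaks, among them 61019911 to 61020051 with 121 tags and a fold of 104.26, which is above every fold in either window, and 61015031 to 61015071 with 224 tags and a fold of 44.91. A further run at 61054691 to 61056251 held 4 peaks with 175 tags, of which 2 were strong. Farther upstream, the runs beginning at 61125151, 61169191 and 61312311 held 4, 4 and 3 peaks, each with 1 strong peak. Over all nuclear peaks, 30.3% were strong. Within 50 kb of the AXIN2 start, 12 peaks with 663 tags lay upstream and 5 with 205 tags downstream.

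Peaks lay on both sides of AXIN2 but mainly upstream of APCDD1. Within 500 kb of the AXIN2 start, 31 peaks with 1317 tags lay upstream and 39 with 1545 tags downstream, the gene body included. Around APCDD1 the same distances held 52 peaks with 1864 tags upstream and 4 with 239 tags downstream. Those 4 were the peak inside the gene and 3 single peaks. The first of these, with 97 tags and a fold of 33.58, lay at 10515211 to 10515331. The next, with 35 tags and a fold of 35.09, lay at 10777491 to 10777531, and the last, with 24 tags and a fold of 24.06, at 10883351 to 10883391. Between the first and the next of these, 262 kb held no listed peak, and 423 kb held none after the last. In the order of protein-coding genes in RefSeq (GRCh38.p14), AXIN2 lies between RGS9 and CEP112, with CEP112 on its upstream side, and APCDD1 lies between VAPA, upstream, and NAPG, which is followed by PIEZO2. Peaks were not placed relative to these neighbours, because their hg18 bounds were not used here, and which gene a distant peak belongs to was not tested.

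**Figure D2:**
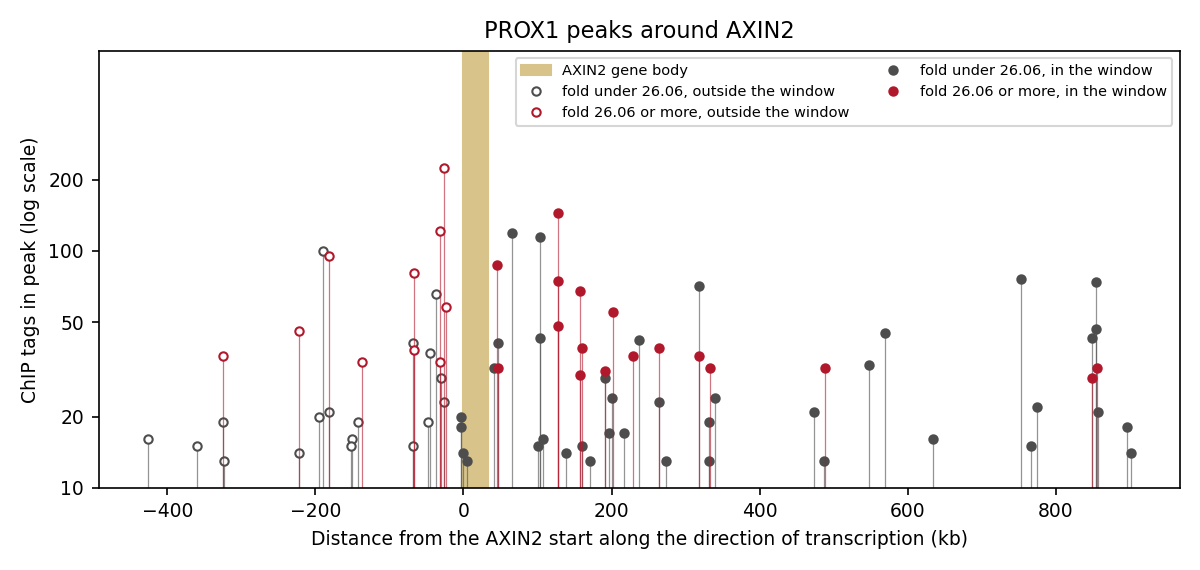
ChIP tags per peak (log axis) against distance from the AXIN2 start in kb, positive along transcription. Each point is 1 peak, red where its fold is 26.06 or more, and open circles lie outside the 1 Mb window but within 500 kb of the start; the 31 upstream and 39 downstream peaks within 500 kb lie on both sides of the gene.

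**Figure D3:**
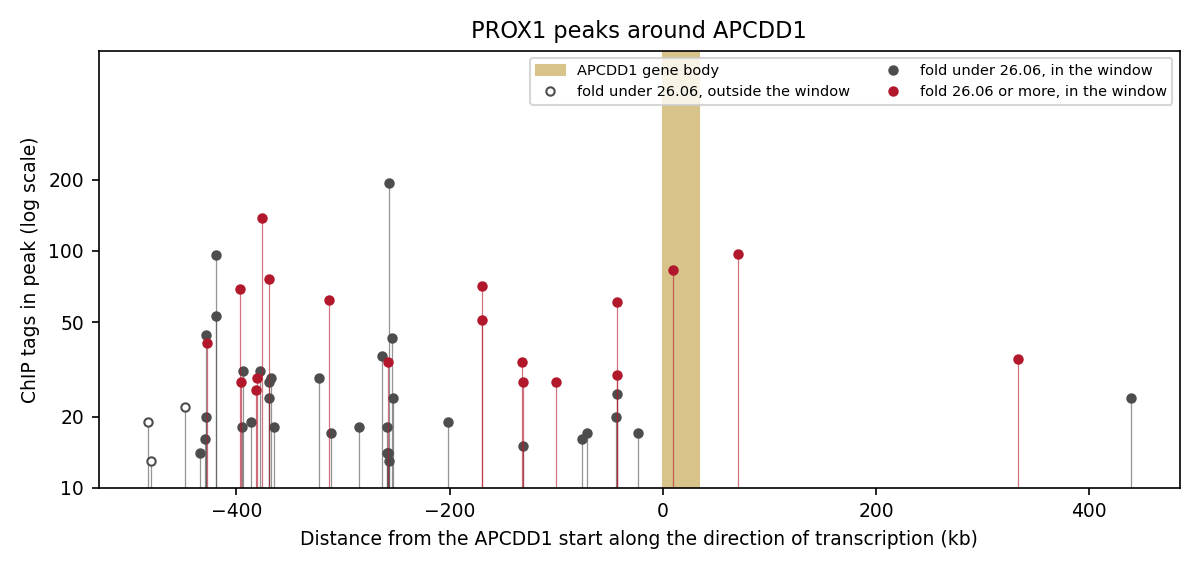
ChIP tags per peak (log axis) against distance from the APCDD1 start in kb, with the same symbols as for AXIN2. Within 500 kb, 52 peaks lie upstream and 4 lie downstream of the start, of which 1 is inside the gene.

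The upstream side of APCDD1 held long runs. The longest, 10048171 to 10080111, had 14 peaks with 564 tags over 31.94 kb, 364 kb from the gene start. Counted over the whole list, the 33 mitochondrial peaks included, 7 runs hold more peaks. Of the 14 peaks of this longest APCDD1 run 6 were strong, where 30.3% of all nuclear peaks were. Of the 5 highest folds of the window, 3 were in it. The run was picked for its size, so nothing is read from this count. A fold of 76.19 was listed both at 10068151 to 10068291, with 138 tags, and at 10075351 to 10075411, with 76 tags. At 10048171 to 10048391 the fold was 55.14 with 69 tags. Next came 10180811 to 10191411 with 10 peaks and 404 tags, of which 1 was strong, and 10010391 to 10025391 with 7 peaks and 284 tags, of which 1 was strong.

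Smaller runs lay between these and toward the gene. The 4 peaks at 10400811 to 10401831 were the nearest run to APCDD1, 42.8 kb upstream of its start, with 136 tags, 2 strong peaks and a highest fold of 30.58. The 3 peaks at 10312711 to 10313611 had 77 tags and 2 strong peaks, and the 3 at 10122391 to 10133111 had 108 tags and 1 strong peak. The last of the 5 highest folds, 51.13 with 51 tags, belonged to a pair of peaks at 10274551 to 10274811, both strong.

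Joined within 10 kb, the largest runs held fewer peaks in the AXIN2 window than in the APCDD1 window. This order depended on the distance, since joining within 20 kb gave a largest run of 21 peaks around AXIN2 and 14 around APCDD1. At 10 kb the largest inside the AXIN2 window was 60131331 to 60139471, with 6 peaks, 246 tags and 2 strong peaks. It lay 849 kb downstream of the start and thus far from the gene. It was followed by 60785771 to 60797491 with 5 peaks and 156 tags, of which 2 were strong. The run of 9 peaks that begins 23.8 kb upstream of the AXIN2 start is larger than both but lies outside the window. The highest folds of the window lay in smaller runs. The 3 peaks at 60860311 to 60861031, 127 kb downstream of the start, were all strong and held 267 tags, with 144 tags and a fold of 75.19 at 60860891 to 60861031. Of the 4 peaks at 60828271 to 60830571, 3 were strong, with 68 tags and a fold of 68.17 at 60830411 to 60830571 and 39 tags and a fold of 39.1 at 60828271 to 60828311. The same tags and fold were listed at 60724111 to 60724151, in a run of 3 peaks from 60715071 to 60724631 with 1 strong peak. The remaining runs of 3 or more were 60649011 to 60656371 (4 peaks, 88 tags, 1 strong) and 60880291 to 60887431 (4 peaks, 188 tags, 0 strong).

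Runs of 3 or more held 37 of the 56 peaks of the AXIN2 window, in 9 runs, and 41 of the 53 of the APCDD1 window, in 6 runs, where 33.9% of all nuclear peaks were in such runs. Runs of 5 or more held 11 peaks of the AXIN2 window (19.6%, 95% exact binomial interval 10.2 to 32.4) and 31 of the APCDD1 window (58.5%, 44.1 to 71.9), with 13.6% over all nuclear peaks. These intervals cover counting error only and count neighbouring peaks as independent. Windows picked for many peaks hold close peaks by that choice, so nothing is read from these shares. The median gap between neighbouring peaks was 5.52 kb in the AXIN2 window, 2.04 kb in the APCDD1 window and 26.2 kb over all nuclear peaks. Gaps under 1 kb numbered 15 of 55 (27.3%) and 21 of 52 (40.4%), with 18.8% over all nuclear peaks. The list does not show whether peaks this close mark 1 place or several, and this was not tested.

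Peak by peak, folds in both windows had medians close to that of the whole list. Strong peaks made up 17 of the 56 peaks of the AXIN2 window (30.4%, interval 18.8 to 44.1) and 19 of the 53 of the APCDD1 window (35.8%, 23.1 to 50.2), with 30.3% over all nuclear peaks. With the strongest peak alone kept from each run joined within 1 kb, the shares were 34.1% and 46.9%, where 32.8% of such places over the nuclear chromosomes were strong. The median fold was 19.55 around AXIN2, 19.05 around APCDD1 and 19.05 over all nuclear peaks. Folds reached 50 in 2 peaks around AXIN2 and 5 around APCDD1, which is 3.57% and 9.43% of them, where 7.62% of all nuclear peaks did. Tag counts ran from 13 to 144 with a median of 30.5 around AXIN2 and from 13 to 194 with a median of 28 around APCDD1, and the median over all nuclear peaks was 25. Counts of 100 tags or more were listed for 3 and 2 peaks, or 5.36% and 3.77%, where 5.5% of all nuclear peaks had as many. Peaks of 80 bp or wider numbered 17 and 13, or 30.4% and 24.5%, where 27.9% of all nuclear peaks were as wide.

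**Figure D4:**
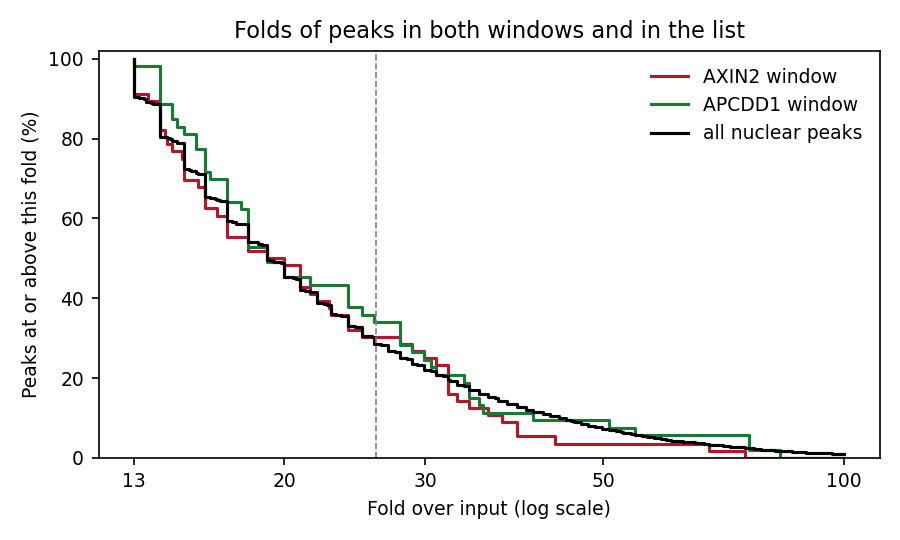
Share of peaks (vertical axis, percent) at or above each fold over input (horizontal log axis) for the 56 peaks of the AXIN2 window, the 53 of the APCDD1 window and all 23417 nuclear peaks. The dashed line marks 26.06, where the shares are 30.4%, 35.8% and 30.3%.

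High tag counts did not always come with high folds. The peak with the most tags in the APCDD1 window, 10187331 to 10187371 with 194 tags, had a fold of 16.21, and 60921991 to 60922031 near AXIN2 had 119 tags at a fold of 14.91. The input tags behind a peak can be inferred from its tags and fold, and came to 12 for the former and 8 for the latter. The peak inside APCDD1 and the 4 peaks in the run at the AXIN2 start all had the lowest inferred input, 1, as did 71.9% of all nuclear peaks, so their folds were set by their tag counts. Whether an input of 1 is a counted tag or a floor that also stands for no input tags cannot be told from the list. Inferred input reached 2 for 16 peaks around AXIN2 (28.6%, interval 17.3 to 42.2) and 15 around APCDD1 (28.3%, 16.8 to 42.3), where 22.7% of all nuclear peaks reached it. At 5 or more there were 4 and 2 peaks, or 7.14% and 3.77%, where the share of all nuclear peaks was 4.42%. The inferred value was not whole for 9 and 3 peaks. There the fold is not the listed tags over a whole input, so input cannot be inferred in this way. The numbers given include such peaks and are uncertain for them. Examples are 60133851 to 60133991 in the AXIN2 window, with 5.44, and 10515211 to 10515331 in that of APCDD1, with 2.9. A change in copy number of a region and a change in binding cannot be told apart from a list of peaks.

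The density stopped at different places in the 2 regions. The window of AXIN2 ranked 6 and that of APCDD1 ranked 7 by number of peaks among 3032 windows of 1 Mb, with a median of 5 peaks per window, which is how they were chosen. On chromosome 17 the next window, 61 to 62 Mb, held 41 peaks with 1826 tags, and those at 59 to 60 and 62 to 63 Mb held 12 and 11. On chromosome 18 the windows on either side held 18 and 17 peaks. AXIN2 starts 11.8 kb below the upper edge of its window, so the rule leaves out most of its upstream side, and a window of the same length centred on its start held 70 peaks. Centring moved the number around APCDD1 from 53 to 56.

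Peaks on either side of the window edges had the following values. Around AXIN2 the first peak inside, at 60086951 to 60086991, was listed with 14 tags at a fold of 14.03, and the last outside below it, at 59847211 to 59847251, was listed with 17 tags at a fold of 17.04. At the upper edge the last inside was the peak with 20 tags described above, and the first outside, at 61011951 to 61011991, was listed with 58 tags at a fold of 29.07. Around APCDD1 the first inside, at 10010391 to 10010451, was listed with 14 tags at a fold of 14.03, with 22 tags and a fold of 22.05 at 9996451 to 9996491 just below the edge. Its last peak inside was the one with 24 tags given above. Beyond the upper edge the nearest peak lay at 11306651 to 11306751, with 30 tags and a fold of 25.06.

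**Figure D5:**
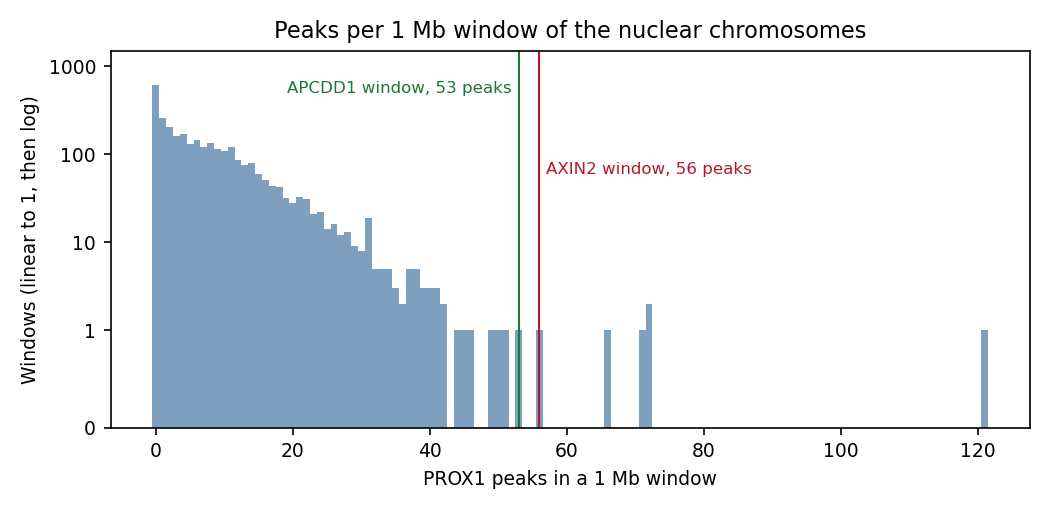
Number of 1 Mb windows (vertical axis, linear to 1 and then log) by the number of PROX1 peaks they hold (horizontal axis), over 3032 windows of the nuclear chromosomes. Vertical lines mark the AXIN2 window with 56 peaks and the APCDD1 window with 53.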

How the data were processed

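The deposited list holds the peaks of 1 PROX1 ChIP library against 1 input library, on hg18 per the submitters' processing notes. Per the labels' protocols, 5 µg of antibody and 10 ng of DNA were used. For the aligner, the peak caller, its threshold and the depth of the libraries, the sources used here name nothing. Tags, folds and p-values are as the authors deposited them: whole tag counts per peak, not normalized, a fold that the values show to be a scaled ratio of ChIP to input tags, and a p-value of at most 0.00099 that cannot be told from a q-value and was not used. Columns have no header and were read from their values. Coordinates are printed as listed.

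Input tags were inferred as tags times 1.0025 divided by the fold, and were whole within 0.02 for 91.6% of peaks. For the other peaks this formula does not give a count of input tags. The tolerance and constant came from the values. Medians and shares are over 23417 nuclear peaks, without 33 mitochondrial ones. Intervals are 95% Clopper-Pearson. Reads without molecular identifiers are not independent molecules. Gene bounds came with the rule that chose the members, and promoters from RefSeq, where APCDD1 was matched and AXIN2 was not.

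Named items were the peaks at each gene or within 10 kb, the nearest to each start, the 5 highest folds and all runs of 3 or more per window, and peaks at the window edges; others, such as the 2 peaks with many tags and low folds and the runs upstream of AXIN2 beyond its window, were chosen after their values were seen. Members and lists were chosen with earlier results of these data known. A list of other Wnt pathway genes was not analysed here. The code for runs and windows was checked on simulated peaks. Inferred input was recovered there by construction, since simulated folds were made with the same formula, so this does not test it on the deposited peaks. Python 3.11.15, numpy 2.4.6, pandas 2.3.3, scipy 1.17.1 and matplotlib 3.10.9 were used.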

Additional observations from a re-analysis of the deposited data

How the results depend on the processing

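Of 36 alternatives, 20 kept their value within the limits used (1.5 times for counts and distances, the 95% interval for shares) and 16 did not. With the 11725 better-ranked peaks of the list alone, the AXIN2 window held 28 peaks and the APCDD1 window 26, 1 peak was left at AXIN2, and the nearest peak to the AXIN2 start lay 3.711 kb away. The largest run around APCDD1 then held 5 peaks, and strong shares were 60.7% and 73.1%, against 60.7% of the nuclear peaks among them. Merging peaks within 10 kb left 23 places around AXIN2 and 16 around APCDD1, and merging within 1 kb left 32 around APCDD1. The gene body alone held 1 peak in AXIN2, while 50 kb on either side gave 18 peaks at AXIN2 and 7 at APCDD1. At 3 times the lowest fold, strong shares were 8.93% and 11.3%, against 13.5% of all nuclear peaks. With strong peaks called by tags in place of fold, the shares were 33.9% around AXIN2 and 28.3% around APCDD1. Over all nuclear peaks that share was 30.3%. Both values stayed within the intervals by fold, but the order of the windows turned. Joining within 20 kb gave a largest run of 21 peaks around AXIN2, above the 14 around APCDD1, which turns their order. The better-ranked list, stricter fold and merging hold fewer peaks by construction. The peak inside APCDD1 stayed nearest to its start in the better-ranked list and by peak centres, the alternatives tried for that distance. With its rank of 416 and the next nearest peak 23.7 kb from the start, neither could change this. No paired analysis was possible because each group has 1 library. Without library depths, weaker peaks could not be assessed.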
